A study of Mus musculus with 2 samples.

Results

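Hmox1, Blvrb, Blvra, Fth1, Ftl1, Slc40a1, Tfrc and Slc11a1 are the iron and heme handling genes described here. They were picked by name, as the 8 gene columns with these symbols, out of 26981 genes listed over both files, and all 8 were found in both. Their mRNA was followed in CD45+ cells (cells that carry the pan-leukocyte surface protein) of visceral adipose tissue, taken from the epididymal depot of wildtype C57BL/6 mice of 15 weeks (male C57BL/6 mice, per the study's methods). One condition was normal water (NW) and the other antibiotics (ABX), with 1 single-cell library each, to see how depletion of the gut microbiota affects immune cells of fat. The label names no agent. The study used ampicillin, streptomycin, colistin and vancomycin in drinking water, as a mixture or each alone, and which of these the library received is not given in the sources used here. How many mice went into each library is not given in the sources used here. After cells with under 500 UMIs (unique molecular identifiers, each marking 1 captured mRNA molecule), under 200 genes or over 25% mitochondrial UMIs were removed, 12474 NW cells of median 5092 UMIs and 12724 ABX cells of median 3845.5 UMIs remained. A total of 196 cell barcodes were shared by both libraries, where 179 would be shared if barcodes were drawn at random. With 1 library per condition no difference between conditions could be tested. Intervals below are 95% intervals that cover counting error only, and levels are UMIs per 1000000 UMIs (CPM) of the summed cells.

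Tissue macrophages take up aged red cells and hemoglobin and free the iron of heme. Heme oxygenase 1 (Hmox1) opens the heme ring into iron, carbon monoxide and biliverdin, and a biliverdin reductase (Blvra) turns this biliverdin into bilirubin. Blvrb is the other gene named as a biliverdin reductase. The iron is stored in ferritin, a shell of heavy (Fth1) and light (Ftl1) chains, moved out of phagosomes by the divalent metal transporter Slc11a1 (Nramp1), or exported through ferroportin (Slc40a1), while the transferrin receptor (Tfrc) brings iron in. Ferritin, ferroportin and the transferrin receptor are also set after transcription, by iron regulatory proteins that bind stem-loops in the untranslated regions (UTRs) of their mRNAs.

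These stem-loops are printed because 4 of the 8 genes carried one, so that for these 4 the mRNA level is not the only layer of control. The search read GENCODE M21 transcripts (GRCm38) on the sense strand for an unpaired C, 5 bases, the loop CAGTGN and 5 bases that pair with the first 5, G with T pairs allowed. In the lines below each sequence runs 5′ to 3′ and the 6-base loop is in capitals.
Fth1, 5′ UTR: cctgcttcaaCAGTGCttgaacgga
Ftl1, 5′ UTR: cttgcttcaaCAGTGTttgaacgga
Slc40a1, 5′ UTR: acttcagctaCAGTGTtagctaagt
Tfrc, 3′ UTR: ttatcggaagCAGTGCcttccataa
Tfrc, 3′ UTR: ttatcgggagCAGTGTcttccataa
Tfrc, 3′ UTR: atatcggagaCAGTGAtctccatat
Tfrc, 3′ UTR: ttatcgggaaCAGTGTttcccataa
On GRCm38 the genes lie at chr8:75093621-75100589 (Hmox1), chr7:27447978-27466144 (Blvrb), chr2:127070665-127097084 (Blvra), chr19:9980598-9985098 (Fth1), chr7:45457944-45459884 (Ftl1), chr1:45908068-45926523 (Slc40a1), chr16:32608920-32632794 (Tfrc) and chr1:74375195-74386062 (Slc11a1). The Fth1 stem-loop lies at chr19:9982734-9982758 on the plus strand. That of Ftl1 lies at chr7:45459781-45459805 and that of Slc40a1 at chr1:45925467-45925491, both on the minus strand. The 4 of Tfrc lie on the plus strand at chr16:32631221-32631245, chr16:32631600-32631624, chr16:32631665-32631689 and chr16:32631712-32631736. Such a match was found in the 5′ UTR of 20 of 21877 genes (0.0914%) and in the 3′ UTR of 118 (0.539%). No match was found in the UTRs of Hmox1, Slc11a1, Blvrb or Blvra.

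Macrophage-like clusters, named from C1qa, C1qb, Mrc1, Cd163 and other markers, held most of the mRNA of all 8 genes. They made up 5756 NW cells (46.1%) and 4977 ABX cells (39.1%). Of the Slc40a1 UMIs of all cells, 87.9% in NW and 82.6% in ABX came from them, and of the Hmox1 UMIs 84.6% and 79.4%. Tfrc was the least concentrated, with 68.6% in NW and 55.0% in ABX. A Slc40a1 UMI was present in 43.1% of NW and 37.9% of ABX macrophage-like cells, whose median depths were 5645.5 and 4076 UMIs. In B cell-like cells, which were taken as a background for these genes, the shares were 5.51% and 5.13% at medians of 4035 and 3939 UMIs. With every cell thinned to 1000 UMIs, Slc40a1 was found in 15.8% of macrophage-like cells in both libraries, against 1.11% and 1.29% of B cell-like cells. For Hmox1 the thinned shares were 38.1% in NW and 32.3% in ABX macrophage-like cells (77.1% and 64.3% before thinning), against 4.52% and 2.96% of B cell-like cells. Thinned shares of Tfrc were 5.93% and 4.37%, beside 4.69% and 3.84% of B cell-like cells, the smallest gap of the genes compared here.

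The macrophage-like cells, the unnamed cluster led by Dpep2 and Lgals3 (774 NW and 593 ABX cells, for which the name monocyte had been refused) and a monocyte-like cluster of 13 and 14 cells were clustered once more. The iron and heme genes were not used, and the cells fell into states named from fixed markers. The Lyve1 state (2488 NW and 1266 ABX cells) was led by Ednrb, Cd209d, Fcna and Lyve1. The lipid-associated state (378 and 168 cells) was led by Fabp5, Atp6v0d2 and Lpl, but also by the monocyte genes Ear2, Lyz1 and Fn1. The interferon state (184 and 176 cells) was led by Ifit3 and Rsad2. The Cx3cr1 inflammatory state (515 and 670 cells) was led by Ccl12, Cx3cr1 and Il1b, and its larger cluster also by the fibroblast genes Dcn and Sparc. In that state the 8 fibroblast markers, all detected, summed to 758 CPM in NW and 1310.3 CPM in ABX, whose part in its levels was not tested. An unnamed state led by Vcam1 and MHC class II genes (1602 and 1486 cells) and an unnamed state of low depth led by Malat1 (640 and 1125 cells, median 1814 UMIs) completed the set. A further 721 NW and 692 ABX cells fell into clusters of other cell types or into a cluster of 82 and 67 cells led by Slpi, Chil3 and Fn1 whose leading genes went against its name. They and a cluster of 15 and 1 cells were not compared.

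Hmox1 separated the states more than either biliverdin reductase did. In the Lyve1 state it stood at 1005 CPM in NW and 857 CPM in ABX, in the interferon state at 752 and 587 CPM, and in the Vcam1-led state at 502 and 490.4 CPM. Each of these steps down excluded 1 in both libraries, with ratios of 1.34 and 1.46 from the Lyve1 to the interferon state and 1.498 and 1.20 from there to the Vcam1-led state. The Malat1-led state (503 and 428 CPM) and the Cx3cr1 inflammatory state (468 and 408 CPM) followed, and these last neighbours did not differ beyond counting error in both libraries. The lipid-associated state stood close to the Lyve1 state in NW, at 1070.0 CPM and a ratio of 1.06, and 2.56-fold above it in ABX, at 2190.5 CPM. Blvrb ran from 199 CPM (Cx3cr1 inflammatory) to 280.3 CPM (Lyve1) in NW and from 199.5 to 276 CPM in ABX, a 1.41-fold and 1.38-fold range. Blvra lay between 39.2 and 62.9 CPM in NW and between 38.6 and 59.5 CPM in ABX. For neither reductase did any neighbouring states differ in both libraries, but states further apart could. Blvrb intervals in the Lyve1 state were 272.8 to 288.0 CPM in NW and 264.4 to 288.3 CPM in ABX. In the Vcam1-led state they were 232.4 to 253.6 and 220.5 to 243.8 CPM.

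Fth1 had the same order of states in both libraries. It fell from the lipid-associated state (9825 CPM in NW, 10250.3 in ABX) through the Lyve1 (6533 and 6715), interferon (6149.9 and 6254.5), Vcam1-led (5405 and 5771) and Cx3cr1 inflammatory (4712 and 5177) states to the Malat1-led state (3389.6 and 3423). All 5 steps excluded 1 in both libraries, and the first was 1.504-fold in NW and 1.53-fold in ABX. Ftl1 was also highest in the lipid-associated state, at 7108 CPM in NW and 7616 in ABX, 1.13-fold and 1.28-fold above the Lyve1 state (6297.5 and 5950.1). Both chains together took 1.69% and 1.79% of the UMIs of the lipid-associated state, against 1.28% and 1.27% in the Lyve1 state. Reads of Ftl1 may be split with its processed pseudogene Ftl1-ps1, whose UMIs were 0.364 of those of Ftl1 in NW and 0.380 in ABX macrophage-like cells. This ratio differed between states, at 0.354 and 0.352 in the Lyve1, 0.405 and 0.441 in the lipid-associated and 0.679 and 0.662 in the Malat1-led state. The level of Ftl1 and its order across states are therefore uncertain.

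**Figure D1:**
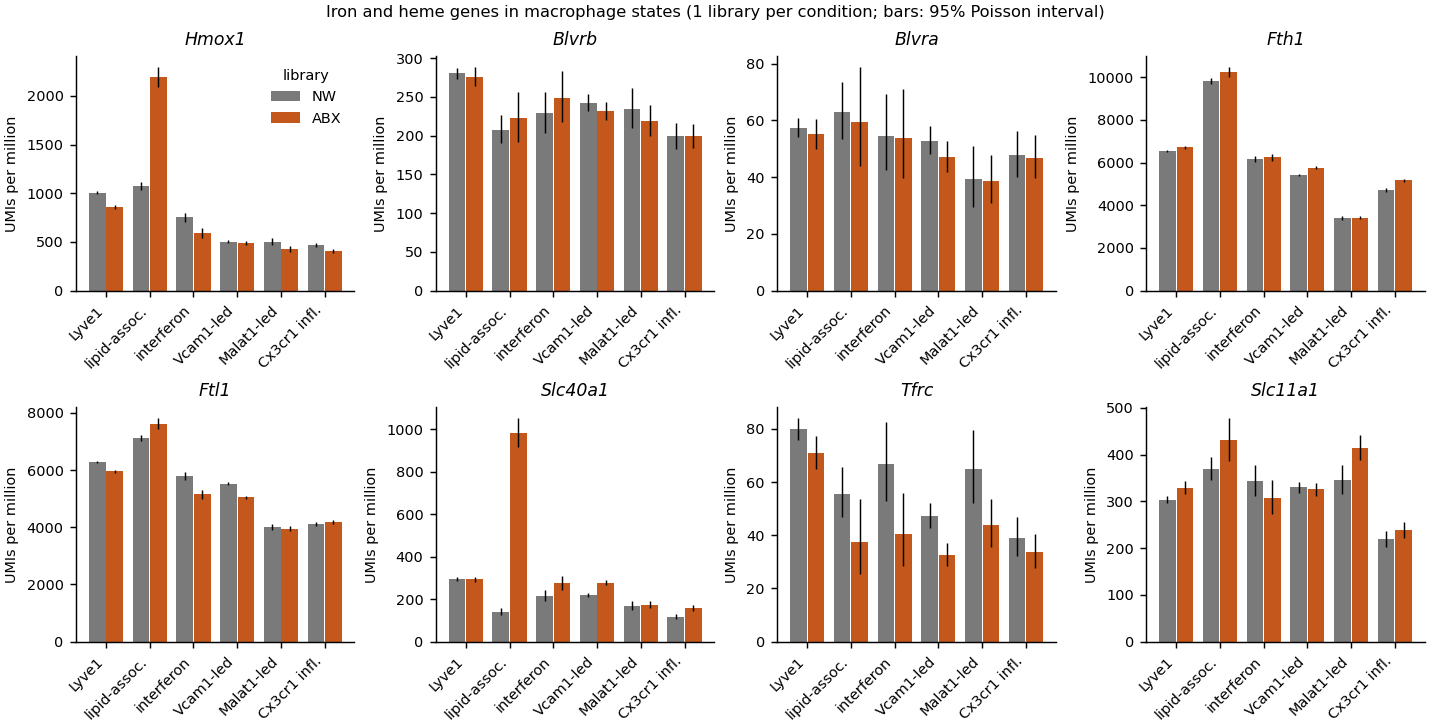
Levels of the 8 genes (CPM, linear axis from 0) in 6 macrophage states, with NW in grey and ABX in orange and 95% Poisson intervals as error bars. Hmox1 and Slc40a1 in the lipid-associated state of ABX (2190.5 and 980.4 CPM) stand above all other bars of their panels, and Fth1 falls in the same order in both libraries.

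Slc40a1 was highest in the Lyve1 state of NW, at 294 CPM, and at 293 CPM in the same state of ABX. The Vcam1-led state followed at 219 and 278 CPM, with a Lyve1 to Vcam1-led ratio of 1.34 in NW and 1.05 in ABX. The interferon state stood at 214 and 275 CPM, not distinguishable from the Vcam1-led state, and above the Malat1-led state at 168 and 174 CPM in both libraries. The Cx3cr1 inflammatory state was at 118 and 157 CPM. The libraries disagreed most in the lipid-associated state among these 6 states, at 141 CPM in NW, below the Lyve1 state, and at 980.4 CPM in ABX, 3.35-fold above it. At least 1 Slc40a1 UMI was found in 1426 of 2488 NW cells and 733 of 1266 ABX cells of the Lyve1 state, and in 72 of 378 and 50 of 168 cells of the lipid-associated state.

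Tfrc was low in all states, from 39.1 to 79.8 CPM in NW and from 32.6 to 70.9 CPM in ABX, and highest in the Lyve1 state of both libraries. None of its neighbouring states differed in both. States further apart did. Tfrc intervals in the Lyve1 state were 75.8 to 84.0 CPM in NW and 65.0 to 77.2 CPM in ABX. In the Vcam1-led state they were 42.6 to 52.0 and 28.4 to 37.2 CPM. Slc11a1 was highest in the lipid-associated state (369.7 and 430.1 CPM) and lowest in the Cx3cr1 inflammatory state (219.8 and 239 CPM), a 1.68-fold and 1.801-fold range. Its single step that held in both libraries was the last, from the Lyve1 state (303 and 329 CPM) to the Cx3cr1 inflammatory state.

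Within a state, cells with at least 3 Slc40a1 UMIs also had more Hmox1 than cells with none. In the Lyve1 state of NW, 695 such cells held 1479.8 CPM of Hmox1 and the 1062 cells with no Slc40a1 UMI held 719.8 CPM, a ratio of 2.06 (1.99 to 2.13). In the Lyve1 state of ABX the values were 1336.5 CPM in 287 cells and 701 CPM in 533 cells, a ratio of 1.91 (1.797 to 2.02). The Vcam1-led state gave ratios of 1.98 and 1.997. Fth1 differed less, by 1.37-fold and 1.17-fold in the Lyve1 state, and Tfrc by 0.947-fold and 0.717-fold. The cells with Slc40a1 were deeper, with medians of 8857 against 6209.5 UMIs in NW and 6893 against 4820 in ABX, and the part of depth in these ratios was not tested.

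Outside macrophages, Slc40a1 and Tfrc were highest in small clusters of other cells. Slc40a1 was at 468 CPM (371 to 582) in the 69 NW cells and 566 CPM (438 to 720.0) in the 61 ABX cells of the neutrophil-like cluster led by S100a9 and S100a8, above the 246 and 271 CPM of macrophage-like cells. A Slc40a1 UMI was found in 59.4% and 57.4% of these neutrophil-like cells although their median depth was 1903 and 1610 UMIs, and no cell held more than 12. The ratio of Slc40a1 to the macrophage gene C1qa was 0.988 and 1.65 there, against 0.103 and 0.134 in macrophage-like cells. Fth1 was likewise high in the neutrophil-like cluster of NW, at 9755 CPM, and was at 4673 CPM in ABX. Tfrc was highest in the unnamed cluster led by the surrogate light chain genes Vpreb3 and Vpreb1 (52 NW and 22 ABX cells), at 240.2 and 210.5 CPM, where Slc40a1 was at 7.21 and 0 CPM. Endothelial-like cells held 354 and 328 CPM of Hmox1, and the 14 macrophage markers, all detected, summed to 19949 and 15225 CPM in the same cluster, whose part was not tested. The balance of the ferritin chains also depended on the cell. The Ftl1 to Fth1 ratio of UMIs was 1.97 and 1.996 in the DC-like cluster led by Fscn1 and Ccl22, 1.55 and 1.65 in plasma cell-like cells, 0.962 and 0.879 in macrophage-like cells, and 0.448 and 0.434 in B cell-like cells.

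**Figure D2:**
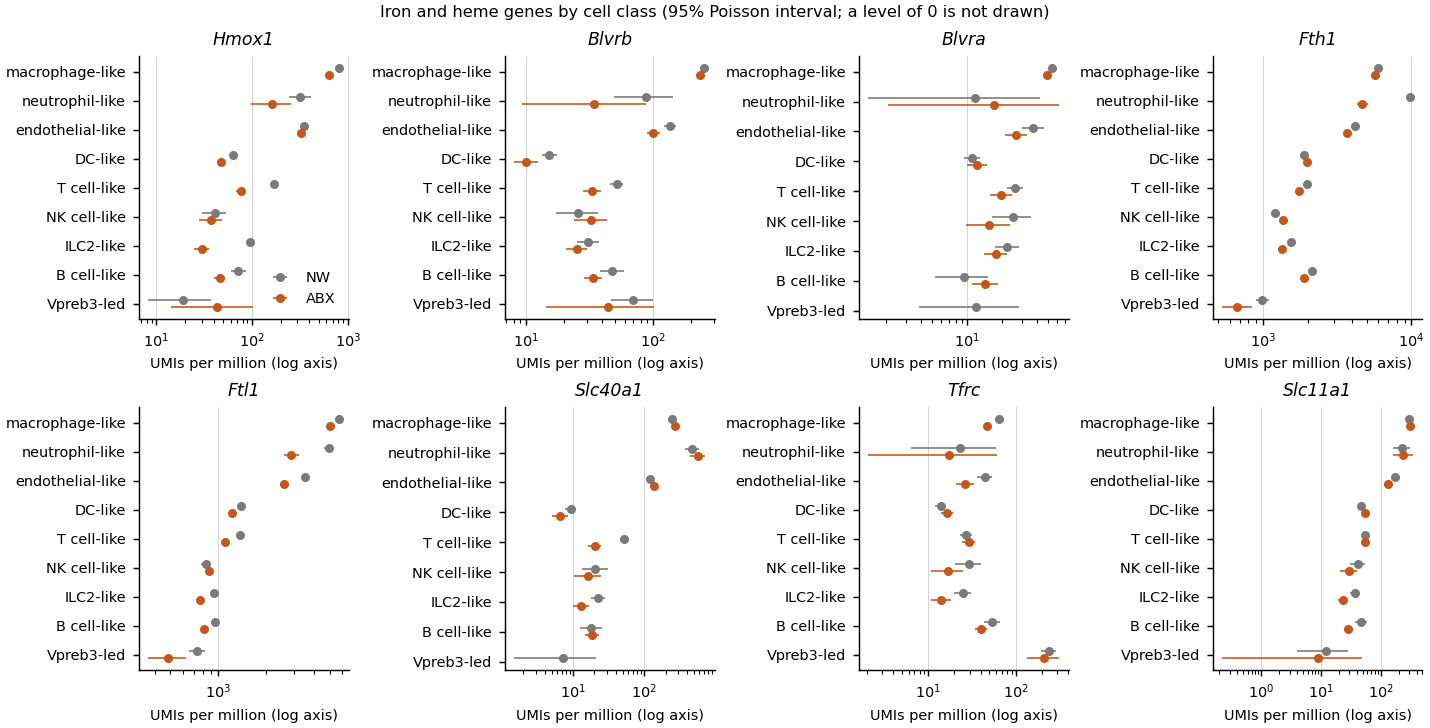
Levels of the 8 genes (CPM, log axis) in 9 cell classes or clusters, NW in grey and ABX in orange, with 95% Poisson intervals. Slc40a1 is highest in the neutrophil-like cluster (468 and 566 CPM) and Tfrc in the Vpreb3-led cluster (240.2 and 210.5 CPM), while the other genes peak in macrophage-like cells, apart from Fth1 in neutrophil-like cells of NW.

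Between NW and ABX, the macrophage-like cells as a whole kept all 8 genes within 1.5-fold. Of 10133 genes with at least 200 UMIs in these cells, 4.04% lay past 1.5-fold with an interval that excluded 1, and 0 of the 8 members did. Tfrc came nearest, at 65.3 CPM in NW and 47.6 CPM in ABX, a ratio of 0.728 (0.677 to 0.783). Hmox1 stood at 804 and 640.2 CPM, a ratio of 0.796 (0.780 to 0.812), and Ftl1 at 5702 and 5019 CPM, a ratio of 0.880. Slc40a1 was slightly higher in ABX, at 246 and 271 CPM with a ratio of 1.1004 (1.06 to 1.14). Slc11a1 (1.03), Fth1 (0.964) and Blvrb (0.925) lay closer to 1, and Blvra was at 0.898. The median log2 ratio of the 8 members was -0.13, beside 0.01 over all genes tested. Cells with at least 10 Slc40a1 UMIs made up 2.54% (146 cells) of NW and 1.73% (86 cells) of ABX macrophage-like cells.

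Within single states the same was found in 5 of 6. Among members with at least 200 UMIs, 0 of 8 in the Lyve1, Vcam1-led and Cx3cr1 inflammatory states and 0 of 6 in the Malat1-led and interferon states were past 1.5-fold, beside 1.76%, 1.35%, 1.74%, 2.02% and 3.75% of all genes. Hmox1 ratios in these 5 states ran from 0.780 (interferon) to 0.977 (Vcam1-led), and that of the Vcam1-led state (0.933 to 1.02) included 1. Slc40a1 ratios ran from 0.996 in the Lyve1 state to 1.33 in the Cx3cr1 inflammatory state. Tfrc ratios lay between 0.608 and 0.888 in all 6 states. The 3 in the Malat1-led, lipid-associated and interferon states rested on under 200 UMIs, the lowest among them (0.608, interferon).

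**Figure D3:**
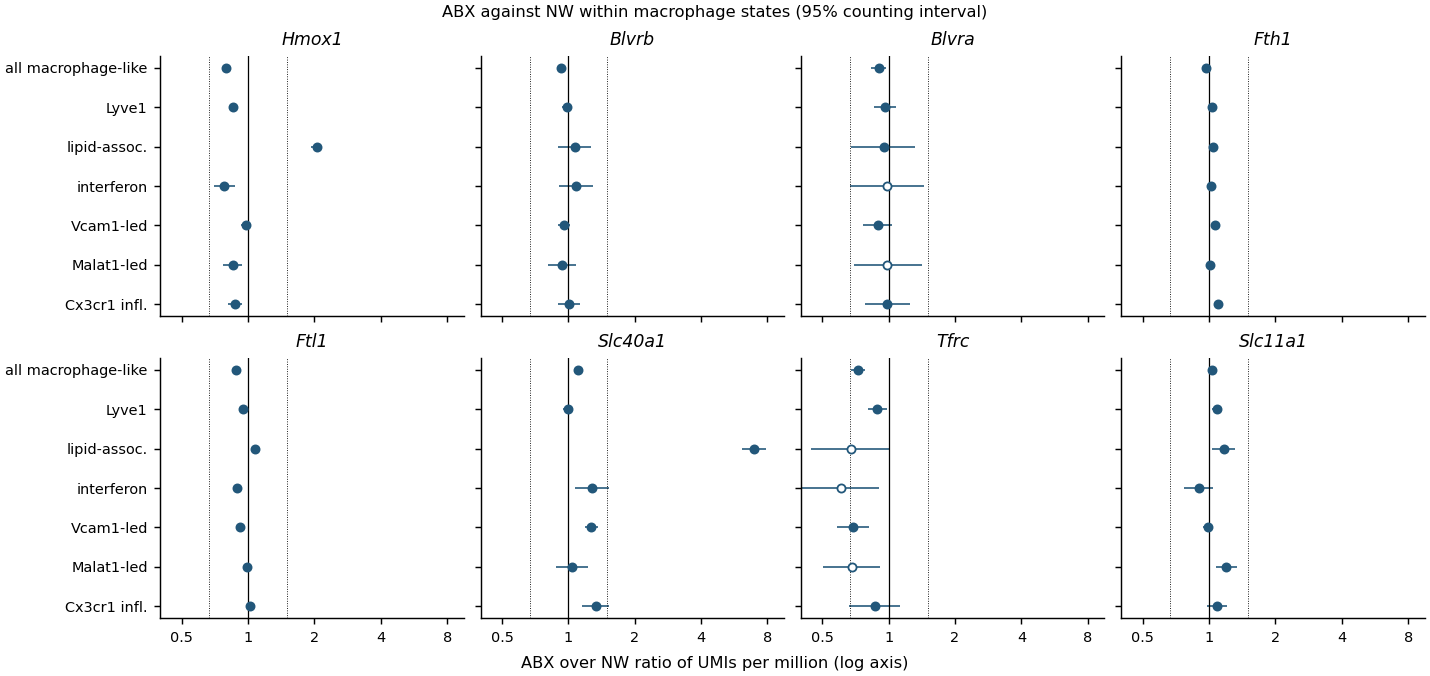
ABX over NW ratios of the 8 genes (log axis) in all macrophage-like cells and in each state, with 95% counting intervals. The solid line marks 1 and dotted lines 1.5-fold either way, and open points rest on under 200 UMIs. Slc40a1 (6.95) and Hmox1 (2.05) in the lipid-associated state are the points beyond the upper dotted line.

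The lipid-associated state was the exception, with 2 of 7 members tested higher in ABX and 0 lower, beside 1.96% of 2808 genes higher and 3.88% lower. Slc40a1 had 352 UMIs in 378 NW cells (141 CPM) and 807 UMIs in 168 ABX cells (980.4 CPM), a ratio of 6.95 (6.13 to 7.90). Hmox1 had 2671 UMIs (1070.0 CPM) and 1803 UMIs (2190.5 CPM), a ratio of 2.05 (1.93 to 2.17). Fth1 (1.04), Ftl1 (1.07), Slc11a1 (1.16), Blvrb (1.07) and Blvra (0.947) did not follow. With another random seed for the clustering, which left 366 NW and 128 ABX cells in the state, the Slc40a1 levels were 121 and 270.4 CPM, a ratio of 2.24 (1.83 to 2.72), and the Hmox1 levels 1033 and 1199 CPM, a ratio of 1.16 (1.06 to 1.26), no longer past 1.5-fold. The UMIs of Slc40a1 sat in few cells. Cells with at least 10 numbered 7 in NW (1.85% of the state, 0.748 to 3.78%) and 22 in ABX (13.1%, 8.39 to 19.2%), and the 10 highest cells held 56.0% and 56.6% of all Slc40a1 UMIs of the state. Of these cells, 5 of the 7 in NW but 4 of the 22 in ABX were in the state with the other seed. Without the 10 highest cells in each library the Slc40a1 levels were 64.2 and 478 CPM, a ratio of 7.46. This step took out all 7 of these NW cells but not all 22 of the ABX cells. It therefore cannot show whether the ratio rests on such cells. For Hmox1 the same step gave 716 and 1024 CPM and a ratio of 1.43 (1.31 to 1.56), below 1.5-fold. With each cell thinned to 1000 UMIs, 8.33% of NW and 20.4% of ABX cells of the state held a Slc40a1 UMI (19.0% and 29.8% unthinned), and 34.2% and 37.4% a Hmox1 UMI. Unthinned, the Hmox1 shares ran the other way, at 66.9% and 58.9%, and no order was read from them.

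The 22 ABX cells with at least 10 Slc40a1 UMIs held 6324 CPM of Hmox1 and 17445 CPM of Fth1, and the 118 ABX cells with none held 570.1 and 6351 CPM. In NW the 7 such cells held 7379 CPM of Hmox1 and 24128 CPM of Fth1, against 646 and 8394 CPM in the 306 cells with none. The cells rich in Slc40a1 were thus rich in Hmox1 and Fth1 in both libraries. They were also deeper, with medians of 8322 against 4219.5 UMIs in NW and 8553.5 against 2449 in ABX, and the part of depth was not tested. Fn1, a marker of monocytes, was at 10.7 CPM in these 22 ABX cells and at 618 CPM in the ABX cells with none. Lpl, a leading gene of the state, was also lower, at 867 against 3019 CPM in ABX and 1049 against 3085 CPM in NW. The macrophage markers Cd163 (1387 against 460.0 CPM in ABX, 1440.2 against 296 CPM in NW) and C1qa (2019 against 678 CPM in ABX, 1334 against 890.5 CPM in NW) were higher. Over the whole state the 10 monocyte markers, all detected, summed to 3305 CPM in NW and 1598 CPM in ABX, the 9 lipid-associated markers to 13317 and 10417 CPM and the 14 macrophage markers to 18009.8 and 23586 CPM. Their part in the Slc40a1 and Hmox1 difference was not tested. Hemoglobin genes gave 1 UMI in NW and 4 in ABX within the state, and none of the 2 NW and 7 ABX cells with at least 20 hemoglobin UMIs belonged to it.

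**Figure D4:**
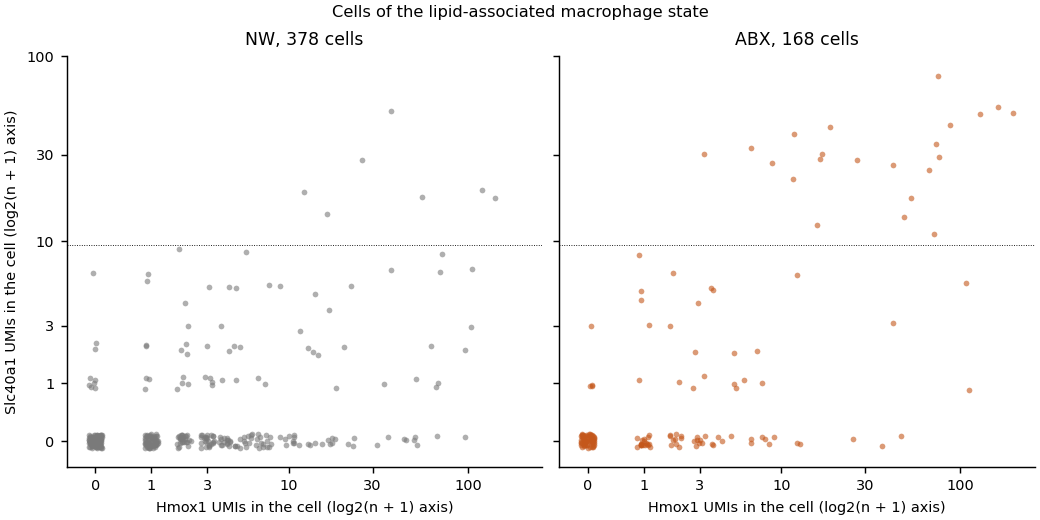
Each point is 1 cell of the lipid-associated state, placed by its Hmox1 UMIs (horizontal) and Slc40a1 UMIs (vertical), both on log2(n + 1) axes with a small random shift, NW left and ABX right. The dotted line marks 10 Slc40a1 UMIs, with 7 NW cells and 22 ABX cells at or above it, and each of these cells also holds Hmox1 UMIs.

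Other choices in the clustering also moved these cells. The first clustering, of all cells, had put 169 NW and 84 ABX cells of the lipid-associated state in macrophage-like clusters and 209 and 84 in the unnamed cluster led by Dpep2 and Lgals3. Slc40a1 was at 292 and 1512 CPM in the former, a ratio of 5.19, and at 26.1 and 288 CPM in the latter, a ratio of 11.02. With RNA alone, the lipid-associated state had 54.1 and 191 CPM of Slc40a1 (ratio 3.53) and 719 and 873 CPM of Hmox1 (ratio 1.21). In that clustering Clec4d, Srxn1, Hmox1, Slc40a1 and Gclm led a macrophage cluster of their own (275 NW and 202 ABX cells), which took up 19 of the 22 ABX cells and 5 of the 7 NW cells. As genes that lead a cluster, Slc40a1 and Hmox1 are given there as a description, at 768 and 1168 CPM (ratio 1.52) and at 3092 and 2720.3 CPM (ratio 0.880). Similar clusters appeared at resolution 1.0 (555 and 361 cells) and with the iron and heme genes among the variable genes (301 and 221 cells), with Slc40a1 ratios of 1.42 and 1.30 and Hmox1 ratios of 0.853 and 0.793. Under each clustering that gave a lipid-associated state, Slc40a1 and Hmox1 were both higher in ABX there, though these clusterings reuse the same cells. The 3 clusters were picked because Hmox1 and Slc40a1 were among their leading genes, so their ratios give no separate support. In them Slc40a1 was higher and Hmox1 lower in ABX.

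In T cell-like, ILC2-like and B cell-like cells several members were lower in ABX. T cell-like cells had 3 of 8 members lower and 0 higher, beside 2.72% of all genes lower and 1.5% higher. Hmox1 was at 170.0 CPM in NW and 77.0 CPM in ABX (ratio 0.453), Slc40a1 at 52.3 and 20.3 CPM (0.387) and Blvrb at 51.8 and 33.2 CPM (0.642). ILC2-like cells had 2 of 5 lower (2.82% of all genes), with Hmox1 at 96.7 and 29.9 CPM, and B cell-like cells 2 of 6 (2.49%), with Hmox1 at 72.5 and 46.1 CPM. The T cell-like levels rested partly on few cells, with up to 130 Hmox1 UMIs in 1 NW cell and 22 in 1 ABX cell, and up to 42 and 9 of Slc40a1. With each cell thinned to 1000 UMIs, the T cell-like cells with a Hmox1 UMI made up 6.01% in NW and 4.32% in ABX (18.2% and 12.7% unthinned), and those with a Slc40a1 UMI 1.90% and 1.26% (6.46% and 4.42% unthinned), smaller differences than those of the levels. In ILC2-like cells the thinned Hmox1 shares were 4.65% and 2.28% (15.9% and 7.40% unthinned). The clusters pooled as T cell-like were also counted separately. Of the members tested, 3 of 6 were lower in the cluster led by Cd4 and Trac, and 2 of 3 in that led by Foxp3 and Ctla4. In the cluster led by Nsg2 and Lef1 2 of 2 were lower, and in that led by Cd163l1 and Trdc 0 of 2 (1.89% of all genes lower). The share of all genes is given here for the last of these clusters only. The counts in the others were therefore not read as a result, and no difference between these clusters was read. Outside the T cell-like, ILC2-like and B cell-like cells, other lymphoid clusters had none lower among the members tested. These were 0 of 4 in the unnamed cluster led by Ly6c2 and Ccl5 (0.761% of all genes lower), 0 of 2 in the NK cell-like cluster (0.629%) and 0 of 2 in the unnamed cluster led by Il18r1 and Tcrg-C2 (1.53%). Only Fth1 and Ftl1 were tested in the NK cell-like and Il18r1-led clusters. Slc40a1 and Blvrb had under 200 UMIs in each of these clusters and could not be called, so no contrast with T cell-like cells was read. Hmox1 was at 41.0 and 37.6 CPM in the NK cell-like and 52.4 and 28.3 CPM in the Il18r1-led cluster. Hmox1 was at 73.9 and 77.7 CPM in the Ly6c2-led cluster, a ratio of 1.05. In T cell-like, ILC2-like and B cell-like cells the 14 macrophage markers, all detected, summed to 6892 CPM in NW and 5710 CPM in ABX of T cell-like, 3858 and 2706 CPM of ILC2-like and 3855 and 2635 CPM of B cell-like cells, the same direction as these members, and their part in the result was not tested. In neutrophil-like cells both members tested were lower, beside 12.1% of the 224 genes tested, with Fth1 at 9755 and 4673 CPM (ratio 0.479, 0.434 to 0.528) and Ftl1 at 4942 and 2881 CPM (0.583). Summed over all cells, only Hmox1 passed 1.5-fold, at 448 CPM in NW and 297 CPM in ABX (ratio 0.664), beside 1.93% of all genes lower, and the share of macrophage-like cells differed between the libraries as given above.

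In the wider pathway, 3 genes were past 1.5-fold in macrophage-like cells, all lower in ABX. Of 84 genes listed in 10 groups, 83 were in the files and 66 had at least 200 UMIs, and 0 were past 1.5-fold higher and 3 lower in ABX, beside 2.9% and 1.13% of all genes. The 3 were the metal importers Slc39a14, at 7.60 and 4.29 CPM (ratio 0.564), and Slc39a8, at 5.56 and 3.48 CPM (0.626), and haptoglobin (Hp), which binds free hemoglobin, at 4.29 and 2.81 CPM (0.656). Of the genes most abundant in their group, those that are not members lay within 1.5-fold, and the members among them (Hmox1, Fth1 and Slc40a1) are given above. Transferrin (Trf) was at 928 and 971 CPM, the hemoglobin scavenger receptor Cd163 at 2127 and 2097 CPM, and metallothionein 1 (Mt1) at 1481 and 1628 CPM. Hfe, which regulates hepcidin, was at 136 and 157 CPM, the mitochondrial iron importer Slc25a37 at 105.0 and 101 CPM, the heme synthesis enzyme Cpox at 45.9 and 44.1 CPM and the oxidant response factor Nfe2l2 at 283 and 308 CPM. In the lipid-associated state, 31 of the 83 were tested, of which 4, with Hmox1 and Slc40a1 among them, were higher and 3 lower in ABX, beside 1.96% and 3.88% of all genes. Beside Hmox1 and Slc40a1, Trf, at 432 and 668 CPM (ratio 1.55), and Cd163, at 469 and 746 CPM (ratio 1.59), were the higher genes. Alas1, the first enzyme of heme synthesis, at 71.7 and 37.7 CPM, the hemopexin receptor Lrp1, at 362 and 232 CPM, and Srxn1, an oxidant response gene, at 90.9 and 52.2 CPM, were lower there. These genes of the lipid-associated state were named after their values were seen.

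Levels across cell classes and states moved together for most members. Over 47 sums of a class or state in a library, which share libraries and depth, Pearson's r of log2(CPM + 1) was 0.906 between Hmox1 and Slc40a1, 0.869 between Fth1 and Ftl1 and 0.835 between Blvra and Blvrb. Tfrc stood apart, with r from 0.255 (Ftl1) to 0.577 (Blvrb). Among 10870 genes, those most like Hmox1 were the lysosomal protease Ctsb (0.949), the lipid droplet gene Plin2 (0.944) and Pltp (0.939). Those most like Slc40a1 were C5ar1 (0.938), Fnip1 (0.930) and Fgd4 (0.929). The complement genes C1qb (0.961) and C1qc (0.952) and Igf1 (0.961) were nearest to Blvrb, and Lyz2 (0.945), Cd68 (0.939) and Ccl6 (0.935) to Slc11a1. Sdcbp (0.929), Atp6v1a (0.915) and Lipa (0.911) were nearest to Fth1, and Ftl1-ps1 (0.984), Creg1 (0.954) and Tmem106a (0.951) to Ftl1. For Blvra they were C3ar1 (0.901), Ms4a7 (0.895) and Mfsd1 (0.893), and for Tfrc Atp13a2 (0.775), Susd1 (0.761) and Snx30 (0.759).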

How the data were processed

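Per the labels and the study's methods, the authors sorted CD45+ cells with magnetic beads, made BD Rhapsody whole-transcriptome libraries with antibody tags, and ran the BD pipeline (version 1.8) on GRCm38 (mm10). The deposited values are raw counts, the UMIs of each gene and of 10 antibodies per cell barcode. The submitters' processing notes name R 3.6.0 and Seurat 3.0.1. A gene listed in 1 file was taken as 0 in the other.

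Cells were filtered as the methods state (at least 500 UMIs and 200 genes, at most 25% mitochondrial UMIs). Filtered cells were clustered with Seurat 5.3.0 in R 4.3.3 (log-normalization, 2000 variable genes without the iron and heme genes, 30 principal components, weighted nearest neighbours with 8 antibodies, Louvain resolution 0.6), and the macrophage-like clusters, the monocyte-like cluster and an unnamed cluster whose best list was monocyte again on RNA alone. Clusters were named from at least 3 markers, and left unnamed where another list had more markers among the 10 leading genes. That last rule and the repeat with another random seed were chosen after seeing the data. UMIs were summed per library and class. Intervals are exact Poisson, conditional binomial (ratios) and Clopper-Pearson (shares). A member was called past 1.5-fold with an interval without 1, at least 200 UMIs over both libraries and at least 50 cells in each. The intervals were tested on simulated data that held counting error alone. That test cannot show how they hold where the UMIs of a gene sit in few cells. Scrublet's automatic threshold marked 344 NW cells and 1 ABX cell, so it had not worked in ABX, and doublets stayed in except in an alternative without the 6% of cells with the highest scores (789 NW and 783 ABX cells). The members and lists were chosen with earlier results of these data known. Named genes were all members, listed pathway genes past 1.5-fold in macrophage-like cells or most abundant in their group, and the 3 genes most correlated with each member. The 2 conditions were compared by counting error alone, with the alternatives given in the closing section.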

Additional observations from a re-analysis of the deposited data

Results flagged for a closer look

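Hmox1 had ABX over NW ratios of summed cells on opposite sides of 1 in different macrophage states. Its ABX over NW ratio was 2.05 in the lipid-associated state, against 0.780 in the interferon, 0.852 in the Malat1-led, 0.853 in the Lyve1 and 0.871 in the Cx3cr1 inflammatory state. With 1 library per condition this difference was not tested, and with another random seed for the clustering the ratio in the lipid-associated state was 1.16. In the state as first clustered, cells with at least 10 Slc40a1 UMIs held Hmox1 at 7379 CPM in NW and 6324 CPM in ABX. Cells with 1 to 9 held 1904 and 2066 CPM, and cells with none 646 and 570.1 CPM. Those with at least 10 numbered 7 of 378 cells in NW and 22 of 168 in ABX, whose part in the ratio was not tested.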

How the results depend on the processing

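No paired analysis was possible because each condition has 1 library. In macrophage-like cells, 59 of 80 ratios of the 8 members under 10 alternatives stayed within the counting interval of the reported ratio and 21 moved beyond it, over a range of 0.665 to 1.19. In cells at or below the median share of dissociation genes, 1 member (Tfrc, 0.665) passed 1.5-fold, and the share of all genes that did so is not given here. In the lipid-associated state 63 of 104 ratios under 13 alternatives stayed within the interval and 41 moved. A reversal, to the other side of 1, could be counted only for Slc40a1 and Hmox1, the members called there, and 0 were found. A ratio that fell below 1.5-fold was not counted as a reversal. There the Hmox1 ratio of 2.05 became 1.48 as a mean over cells (1 member past 1.5-fold), 1.72 at resolution 1.0, 1.21 on RNA alone and 3.38 in cells of low dissociation share. In alternatives chosen after seeing the data, it became 1.16 with another random seed, 1.43 without the 10 highest cells, 1.803 in cells of macrophage-like clusters and 1.69 in cells of the Dpep2-led cluster. The Slc40a1 ratio of 6.95 became 4.30 as a mean over cells, 8.09 at resolution 1.0, 3.53 on RNA alone and 9.82 in cells of low dissociation share, and, chosen after seeing the data, 2.24 with another seed and 5.19 and 11.02 in these groups of clusters. With the iron and heme genes among the variable genes no state was named lipid-associated, because monocyte markers outnumbered its own in the nearest cluster (349 NW and 158 ABX cells), where the ratios were 1.24 for Hmox1 and 4.95 for Slc40a1. The cause of these changes was not tested. Pathway genes past the fold numbered 5 with at least 50 UMIs and 0 at 2-fold. The share of all genes at these settings is not given here, so these counts were not read as a result. Unthinned, the ABX over NW ratio of the share of cells with Slc40a1 was 0.879 in macrophage-like cells. Depth and the lack of replicates limit all of these values.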

Other observations

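Barcodes below the cell filters (5188 in NW with a median of 599.5 UMIs, 5061 in ABX with a median of 515 UMIs) held Hmox1 at 155 and 125 CPM and Slc40a1 at 26.9 and 34.0 CPM. Hemoglobin genes gave 573 UMIs in NW and 5525 UMIs in ABX, of which 451 and 5163 lay in the 2 NW and 7 ABX cells with at least 20.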
